A study of Mus musculus with 12 samples.

Results

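The gamma subunits of heterotrimeric G proteins were examined through the genes Gng2, Gng3, Gng4, Gng5, Gng7, Gng10, Gng11, Gng12 and Gng13. These 9 genes were chosen by array values, those of Gng2 and Gng7 having differed between amitriptyline (AMI) and vehicle in another way in hippocampus than in cortex. The AMI differences of the members are therefore given below as descriptions without a test. Of the 18097 gene symbols and 25697 probes on the array, 8 symbols and 11 probes belonged to the members, and Gng5 was not analysed here. Of the 11 probes, 7 probes of 6 genes were detected on all 12 arrays.

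RNA came from the hippocampus and the cortex of male 3×TgAD mice and was hybridized to Illumina mouse expression BeadChips, with 3 arrays for each tissue and treatment. These mice model Alzheimer's disease. They carry a mutant presenilin 1 knock-in together with transgenes for mutant human amyloid precursor protein and tau, both driven by a Thy1 cassette that is active mainly in neurons, and no mice without these alleles were among the arrays used here. The AMI group drank amitriptyline hydrochloride, a tricyclic antidepressant, at 100 µg/g body weight for 4 months, from 14 months of age. The vehicle group drank plain water, and both groups were 18 months old when tissue was taken. According to the study's methods, both treatment groups also received injections of the thymidine analogue BrdU midway. Which mouse gave which sample was not stated, so the p-values below measure the spread between these samples.

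G proteins carry signals from receptors at the cell surface to enzymes and ion channels. The alpha subunit binds guanine nucleotides, while beta and gamma form a dimer that does not come apart in the cell and signals by itself once the alpha subunit is released. A lipid attached to the end of the gamma subunit holds the dimer at the membrane. In brain, beta-gamma dimers open inwardly rectifying potassium channels, inhibit presynaptic calcium channels and tune adenylyl cyclases, and Gng7 is best known from striatal neurons, where it is needed to assemble the olfactory-type alpha subunit Gnal with its dimer.

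The probes decide what each value can say, and the Gng2 and Gng7 probes are shown because the results turn on them. Every probe was 50 bases long, of which 30 are printed, from the 5′ end. Gng2 had 2 probes, starting at bases 629 and 3533 of its transcript, and the former is printed. The latter shared a run of 16 bases with a probe of another gene, Pigw. No other member probe shared a run of 16 bases with a probe of another gene. The Gng7 probe at base 3270 was marked in the annotation as reading all isoforms, and the probes at bases 13 and 4 as specific to an isoform.
Gng2, base 629: gaccctgcagaccggcctggaggagggaaa
Gng7, base 3270: gtgtgccacgcccactctcccagtgttact
Gng7, base 13: tctctaggccccgcggtgcgttcggctgtg
Gng7, base 4: ttgctatatcgagcctgcaggagagcggtg
The array annotation placed the Gng2 probe at base 629 on the minus strand of chromosome 14, at chr14:20694780-20694829. It placed the Gng7 probe for all isoforms on the minus strand of chromosome 10, at chr10:80411411-80411460. The genome build of these positions was not given in the sources used here.

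Each array detected between 49.0% and 51.7% of all probes at a detection p of 0.05 or less. The lowest correlation of log2 signals within a group was 0.986. Values were compared on the log2 scale after every array was centred and scaled to the same spread (z normalization), and array values below are on a common scale of all 12 arrays. Within a tissue, AMI differences come from the 6 arrays of that tissue scaled by themselves. Differences on that scale are 1.06 times those on the common scale in hippocampus and 0.943 times in cortex. The tissue labels were checked with genes known for each region. In hippocampus, 4 of 4 tested hippocampal genes were higher, among them C1ql2 and Fibcd1 by 3.22 and 2.75 log2, while Tdo2 was not detected. In cortex, 5 of 6 cortical genes were higher, and Fezf2 went the other way by 0.81. Hippocampal vehicle array 3 stood apart in choroid plexus genes, with a mean of 2.94 over 7 genes against 0.01 to 0.42 on the other hippocampal arrays. On the cortical arrays this mean also varied, from -0.11 to 1.70.

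Part of the family could not be read. Gng12 was detected on 0 of the 12 arrays, with signals between 42.0 and 66.2. Gng11, one of the few gamma subunits that carry a farnesyl rather than a geranylgeranyl lipid, was detected on 1 array, hippocampal vehicle array 3, and its signals lay between 47.7 and 89.6. Both Gng7 isoform probes were detected on 0 arrays, with signals between 53.0 and 82.0, so all values of Gng7 come from the probe that reads every isoform.

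**Figure D1:**
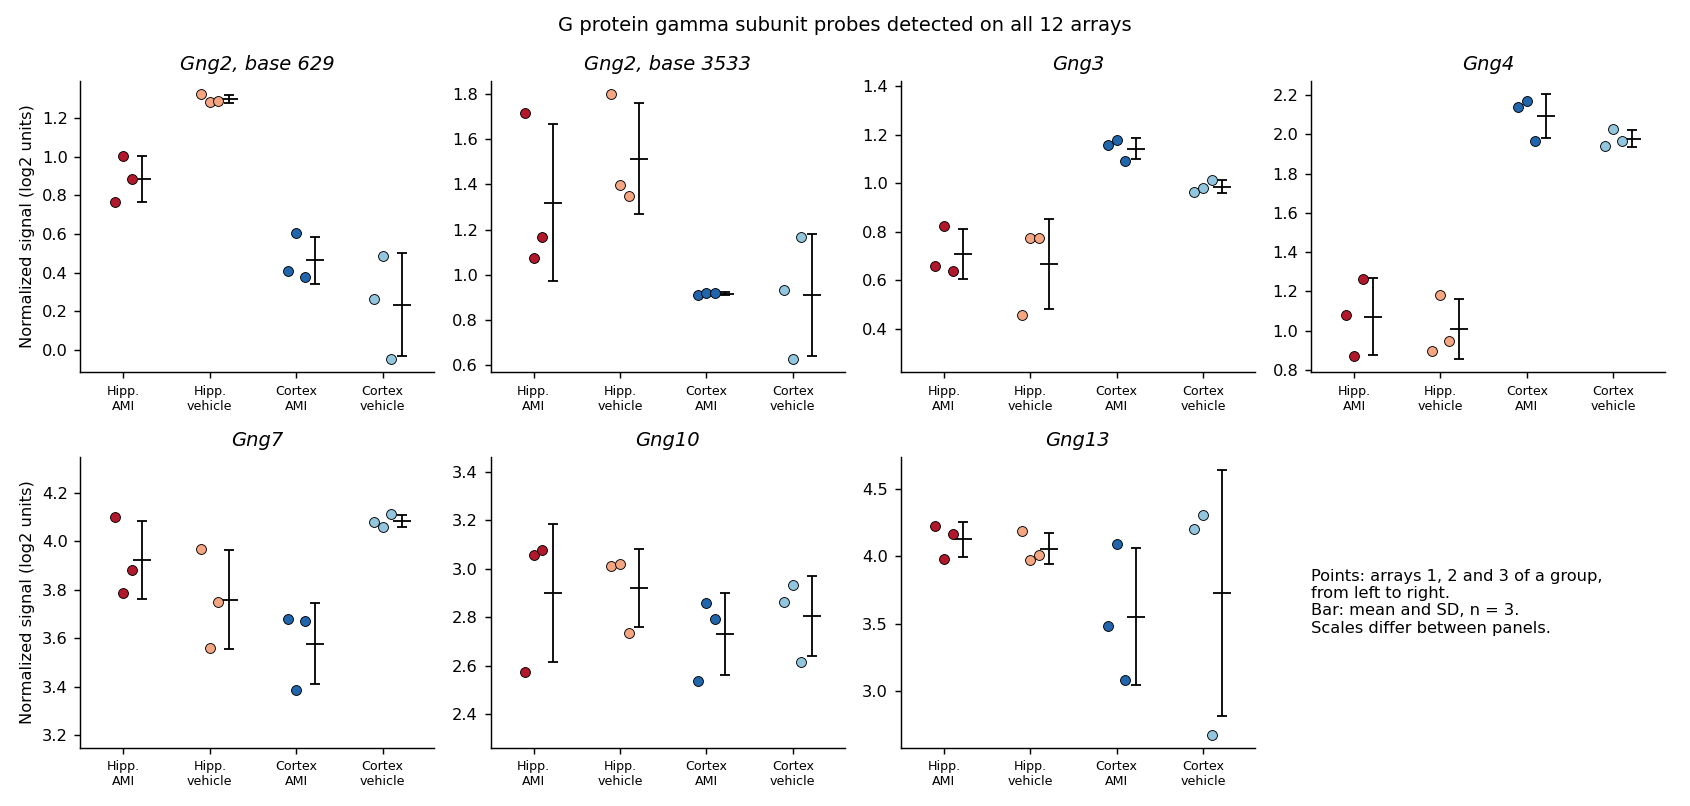
Normalized signal (log2 units) of the 7 member probes detected on all 12 arrays, one panel per probe, with 3 arrays per tissue and treatment and the mean and SD beside them. Gng4 and Gng3 lay higher on every cortical array than on any hippocampal array, Gng2 (base 629) lay higher on every hippocampal array, and the cortical Gng13 values spread over 1.63 units.

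The tissues were compared as the mean difference between hippocampus and cortex over both treatments, which uses none of the AMI differences that chose the members. Gng4 and Gng3 were lower in hippocampus than in cortex, and both Gng2 probes were higher there. By limma with Benjamini-Hochberg adjustment, 4 of the 7 member probes passed an adjusted p of 0.05, in a comparison where 43.1% of all 13677 probes tested passed, 24.4% higher in hippocampus and 18.7% higher in cortex. A share of 4 in 7 is not far from that background and says nothing particular about the family, so the values of each gene are what follows. Groups of 6 that did not overlap were seen in 3 of the 7 probes and in 22.3% of all probes. The tables of the 2 tissues were exported by different versions of the scanner software, and tissue and table cannot be told apart.

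Gng4 showed the widest difference between the tissues of the 7 probes. Its gene encodes a gamma subunit found in brain. The hippocampal values after AMI were 1.08, 0.87 and 1.26, and with vehicle 0.90, 1.18 and 0.95. In cortex they were 2.14, 2.17 and 1.97 after AMI and 1.94, 2.03 and 1.97 with vehicle. Every cortical array lay above every hippocampal array, and the treatments overlapped within each tissue. The means were 1.04 ± 0.16 in hippocampus and 2.04 ± 0.10 in cortex (SD, 6 arrays each). The difference of -1.0 ± 0.08 log2 (SE), a 2.0-fold lower signal in hippocampus, passed the test (adjusted p = 1.52e-06, limma). It was -1.04 on AMI arrays alone and -0.96 on vehicle arrays alone.

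Gng2, one of the common partners of beta subunits in brain, was higher in hippocampus on both of its probes. On the probe at base 629 the hippocampal values were 0.77, 1.0 and 0.89 after AMI and 1.32, 1.28 and 1.29 with vehicle. The cortical values were 0.41, 0.60 and 0.38 after AMI and 0.26, 0.49 and -0.04 with vehicle. All 6 hippocampal arrays lay above all 6 cortical arrays. The difference was 0.74 ± 0.09 log2 (SE), or 1.67-fold (adjusted p = 3.16e-05, limma), with a 95% interval of 0.55 to 0.93. The probe at base 3533 gave 0.50 ± 0.13 (adjusted p = 0.00606, limma), and its tissues overlapped because hippocampal AMI array 2, at 1.07, lay below cortical vehicle array 3, at 1.17. The order of the 4 groups on the probe at base 629 was hippocampus with vehicle, hippocampus with AMI, cortex with AMI and cortex with vehicle. In that order the cortical neighbours overlapped and the others did not.

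Gng3, a subunit of mature neurons, was lower in hippocampus. The hippocampal values were 0.66, 0.83 and 0.64 after AMI and 0.46, 0.78 and 0.77 with vehicle. The cortical values were 1.16, 1.18 and 1.09 after AMI and 0.96, 0.98 and 1.02 with vehicle. No hippocampal array reached the lowest cortical one. The difference was -0.38 ± 0.07 log2 (SE), or 1.30-fold (adjusted p = 9.68e-04, limma). It was -0.44 on AMI arrays alone (adjusted p = 0.0112, limma) and did not pass on vehicle arrays alone (-0.31, adjusted p = 0.0784, limma). The call was also lost when each array was only centred on its median (-0.20, adjusted p = 0.174, limma). That scaling moved the median of all probes between the tissues from 0.03 to 0.19 log2, and the share of calls that were higher in hippocampus from 56.6% to 84.7%.

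Gng7, Gng10 and Gng13 did not pass in the comparison of tissues. Gng10, a broadly expressed subunit, lay between 2.54 and 3.08 on all 12 arrays. It differed by 0.14 ± 0.10 log2 (SE; adjusted p = 0.296, limma; 95% interval -0.08 to 0.37) and, of the alternatives run, passed only when arrays were weighted by their quality (0.25, adjusted p = 0.0152). Gng13, known from taste cells, olfactory neurons and retinal bipolar cells, differed by 0.45 ± 0.25 (adjusted p = 0.160), and its interval of -0.08 to 0.98 leaves room for a difference as wide as that of Gng2. Gng7 differed by 0.01 ± 0.09 (adjusted p = 0.942; 95% interval -0.18 to 0.20), which is a mean over opposite differences in the treatments. With median centring Gng7 and Gng13 passed, at 0.52 and 0.94 log2, above the shift of all probes.

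Marker genes of several cell types also differed between the tissues. All 8 microglial genes tested lay higher in hippocampus, 7 of them past an adjusted p of 0.05 (limma), with a median of 0.46 log2. All 7 oligodendrocyte genes lay lower there, 4 past the threshold, with a median of -0.40. All 4 neuronal genes lay lower as well, 2 past the threshold, with a median of -0.29. The median over all probes was 0.03. Under median centring, where it was 0.19, the microglial count stayed at 7, but the oligodendrocyte median was -0.01 with 2 genes called higher and 0 lower, and the neuronal median was 0.37 with 2 called higher and 1 lower. The part of these cell types in the gamma subunit differences was not tested. In whole tissue, fewer cells of a type and less RNA per cell cannot be told apart.

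**Figure D2:**
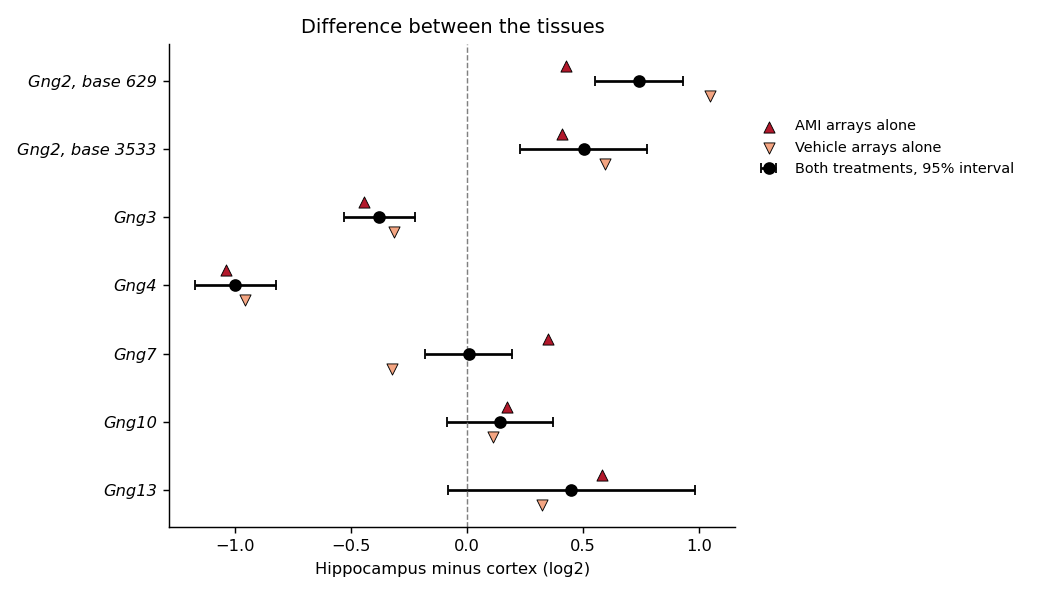
Difference between hippocampus and cortex (log2, hippocampus minus cortex) of the 7 detected member probes. Black points are the mean over both treatments with its 95% interval, and triangles are the difference on AMI or vehicle arrays alone; Gng4 sits at -1.0, Gng2 (base 629) at 0.74, and the Gng7 triangles at 0.35 and -0.32.

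AMI was then compared with vehicle within each tissue. Of all probes, 0% had an adjusted p under 0.05 by limma in hippocampus, and 0% in cortex. At an unadjusted p of 0.05 there were 309 of 13163 probes (2.35%) in hippocampus and 813 of 12944 (6.28%) in cortex. The t-test named in the study's methods gave 483 and 827. It was run without the study's cut-offs on the size of change and the false discovery rate. With the replicate number as a block the hippocampal count was 1063. The hippocampal count was 72 under median centring, 581 under quantile normalization, 626 under neqc, 615 with no detection filter and 1305 under array weights. The cortical count was 433 under median centring, 1519 with no detection filter and 2954 under array weights. Single arrays moved the counts too. Without hippocampal AMI array 1 the hippocampal count was 941, without AMI array 3 it was 177 and without vehicle array 2 it was 187. Without cortical vehicle array 3 the cortical count was 1936, without AMI array 1 it was 377 and without vehicle array 2 it was 366.

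In hippocampus, Gng2 was the member with the largest AMI difference, and it lay lower after AMI. On the probe at base 629 the deposited signals were 176, 372 and 282 after AMI and 294, 404 and 385 with vehicle. On the common scale the AMI arrays lay at 0.77 to 1.0 and the vehicle arrays at 1.28 to 1.32, so the groups did not overlap. The difference was -0.44 ± 0.10 log2 (SE), a 1.35-fold lower signal. It lay between -0.49 and -0.38 when each hippocampal array was left out in turn, and at -0.44 without vehicle array 3. Hippocampal arrays of the same number in their titles were taken as pairs, though the treatments were given to different mice. Within the pairs AMI minus vehicle was -0.56, -0.28 and -0.40 on the common scale.

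The Gng2 probe at base 3533 gave a smaller hippocampal difference. Its values were 1.72, 1.07 and 1.17 after AMI and 1.80, 1.40 and 1.35 with vehicle, with overlap. The difference was -0.21 ± 0.20 log2 (SE), and within the pairs it was -0.08, -0.32 and -0.18. Both probes thus lay lower after AMI in each pair, by different amounts. Array 1 of both treatments was high on this probe, whereas on the probe at base 629 the SD of the vehicle arrays was 0.02.

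The other members differed little between the treatments in hippocampus. Gng7 lay at 4.10, 3.79 and 3.88 after AMI and at 3.97, 3.56 and 3.75 with vehicle. Its groups overlapped, and the difference was 0.17 ± 0.14 log2 (SE), with the AMI array the higher of each pair, by 0.13, 0.23 and 0.13. Gng3, Gng4, Gng10 and Gng13 differed by 0.04, 0.07, -0.02 and 0.07 log2, each with overlap. Of the 7 member probes, 1 had treatment groups that did not overlap, against 7.89% of all probes.

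Oligodendrocyte and choroid plexus genes also had lower medians after AMI in hippocampus. All 7 oligodendrocyte genes tested were lower after AMI, with a median of -0.49 log2 beside 0.01 for all probes. Of these, 3 had an unadjusted p under 0.05 and 0 passed after adjustment (limma). The mean of the list was 3.94, 3.61 and 3.98 on the AMI arrays and 4.46, 4.37 and 3.93 on the vehicle arrays, so vehicle array 3 lay among the AMI arrays while its Gng2 value did not. The choroid plexus genes were lower for 5 of 5 tested, with a median of -1.03. That list was high on vehicle array 3 alone. Its means on the other vehicle arrays, 0.21 and 0.42, overlapped the AMI means of 0.01, 0.28 and 0.38. The part of the oligodendrocyte and choroid plexus genes in the Gng2 values was not tested.

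In cortex, Gng7 was the member with the largest AMI difference, and it lay lower after AMI. The deposited signals were 1573, 2046 and 1224 after AMI and 2133, 1979 and 1656 with vehicle, and these overlap because the arrays differed in brightness. On the common scale the values were 3.68, 3.39 and 3.67 after AMI and 4.08, 4.06 and 4.11 with vehicle. No AMI array reached the lowest vehicle array, and the SD of the vehicle arrays was 0.03. The difference between AMI and vehicle was -0.48 ± 0.10 log2 (SE), a 1.39-fold lower signal. It was -0.53 to -0.38 when each cortical array was left out in turn.

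Gng2 and Gng3 lay slightly higher after AMI in cortex. The Gng2 probe at base 629 differed by 0.22 ± 0.14 log2 (SE) with overlapping groups, and the probe at base 3533 by 0.01 ± 0.13. Gng3 differed by 0.15 ± 0.08, with AMI values of 1.16, 1.18 and 1.09 above vehicle values of 0.96, 0.98 and 1.02. Gng4, Gng10 and Gng13 differed by 0.11, -0.07 and -0.17, each with overlap. Of the 7 member probes, 2 had groups that did not overlap, Gng7 lower and Gng3 higher after AMI, against 12.2% of all probes.

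**Figure D3:**
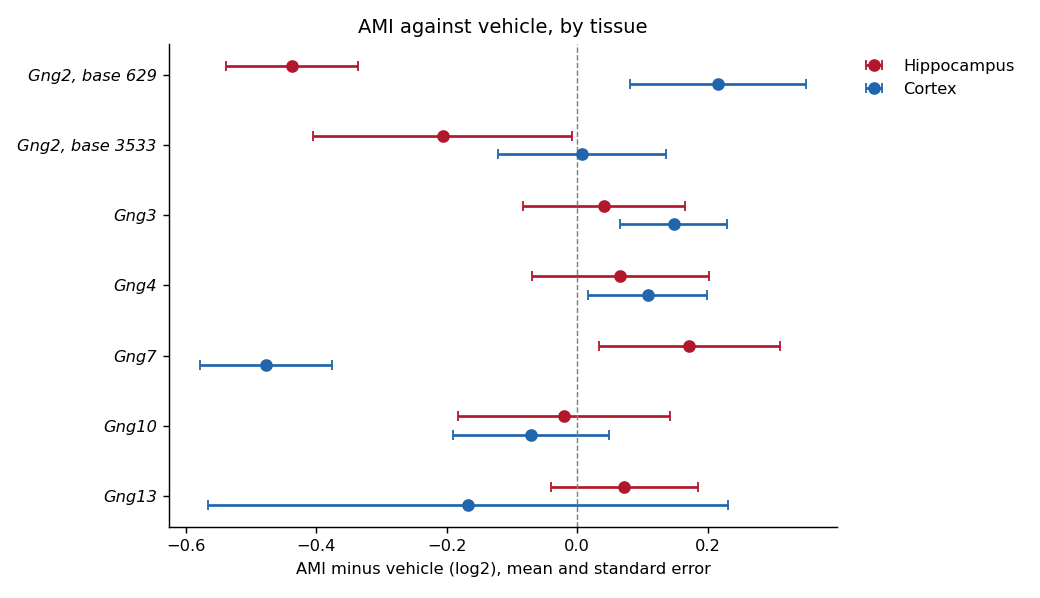
AMI minus vehicle (log2) of the 7 detected member probes in hippocampus (red) and cortex (blue), as the difference of the means with its standard error, 3 arrays per group. Gng2 (base 629) sits at -0.44 in hippocampus and 0.22 in cortex, and Gng7 at 0.17 in hippocampus and -0.48 in cortex.

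The difference of the AMI effect between the tissues is the pattern that chose the members and is described only. Among the 7 member probes its largest values were 0.67 ± 0.17 log2 (SE) for Gng7 and -0.64 ± 0.18 for the Gng2 probe at base 629 (hippocampal effect minus cortical effect). The other 5 probes lay between -0.20 and 0.25. Over all probes, 0 of 12430 passed an adjusted p of 0.05 (0%, limma), and 377 (3.03%) had an unadjusted p under 0.05. The groups of Gng7, from high to low, were cortex with vehicle, hippocampus with AMI, hippocampus with vehicle and cortex with AMI, and every neighbour in that order overlapped with the next. Hippocampus minus cortex, Gng7 stood at -0.32 log2 with vehicle and at 0.35 after AMI, each without overlap. How many of all probes lay without overlap between the tissues within a treatment was not counted.

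Striatal genes were set beside Gng7 in cortex. Of the 6 striatal marker genes on the array, 5 were detected, among them the dopamine receptors Drd1a and Drd2 and the phosphatase inhibitor Ppp1r1b, and Adora2a was not tested. All 5 were higher in cortex than in hippocampus (limma), Ppp1r1b by 5.61-fold and Drd1a by 2.53-fold. The mean of the 5 genes in cortex was 1.51, 1.38 and 1.33 after AMI and 1.74, 1.61 and 1.56 with vehicle, without overlap. After AMI, 4 of the 5 were lower, with a median of -0.22 log2 beside 0.02 for all probes. Drd2 had the smallest p (-0.51, unadjusted p = 0.00237, adjusted p = 0.756, limma). Ppp1r1b, Drd1a and Pde10a differed by -0.30, -0.22 and -0.06, and Tac1 by 0.01. Gnal and Adcy5, the alpha subunit and adenylyl cyclase that work with Gng7 in striatum, were detected on 0 of the 12 arrays. The part of striatal tissue in the Gng7 values was not tested.

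**Figure D4:**
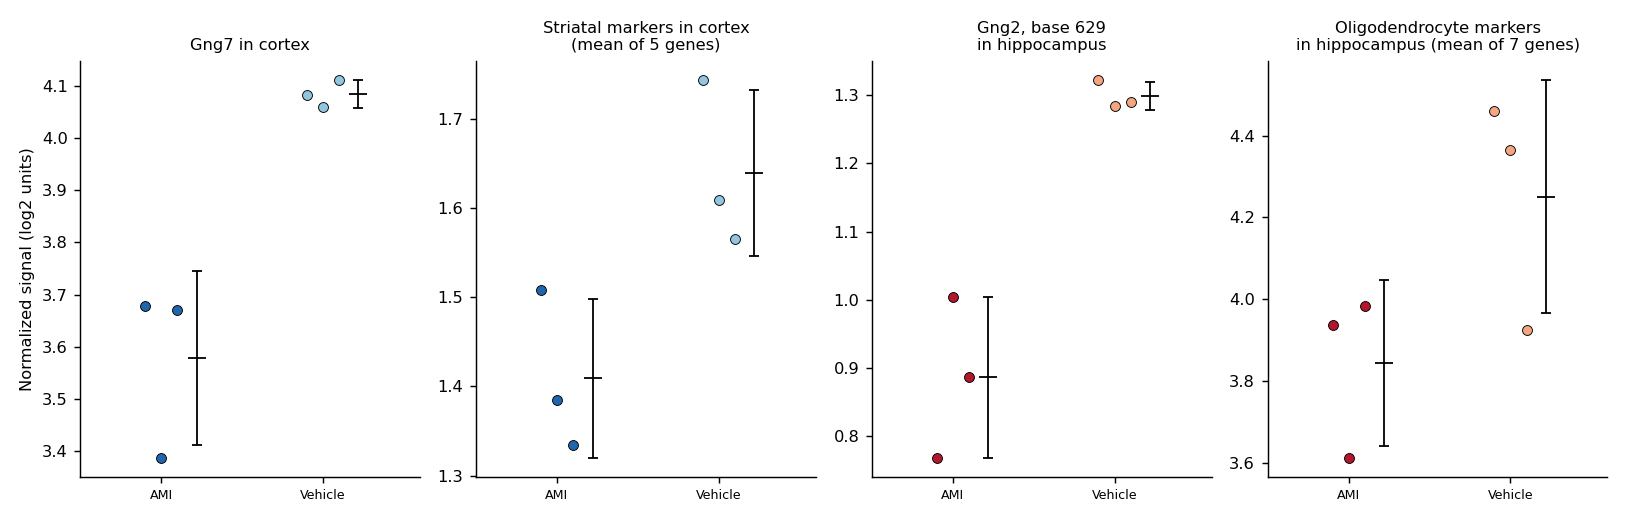
Normalized signal (log2 units) by array of Gng7 and of the mean of 5 striatal genes in cortex, and of Gng2 (base 629) and the mean of 7 oligodendrocyte genes in hippocampus, with the mean and SD of 3 arrays. Gng7, the striatal mean and Gng2 do not overlap between AMI and vehicle; the oligodendrocyte mean does, through vehicle array 3 at 3.93.

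Gng13 was the least steady member in cortex. Its cortical values were 3.48, 4.09 and 3.08 after AMI and 4.20, 4.31 and 2.68 with vehicle, while the hippocampal values stayed between 3.97 and 4.23. Its SD over the 6 arrays was 0.67 log2 in cortex, at the 99.7th percentile of 12430 probes, and 0.12 in hippocampus. The low values lay in both treatments. Cortical vehicle array 3 and AMI array 3, where Gng13 was lowest, also had the lowest ratios of detected to undetected median signal in the series, 2.94 and 2.96. Hippocampal AMI array 1 had a ratio of 3.10 and a Gng13 value of 4.23, and the part of signal strength in the Gng13 spread was not tested. Without cortical vehicle array 3, the Gng13 difference between the tissues was 0.19 log2.

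The genes whose profiles over the 12 arrays were nearest to Gng13 were Tomm7, Sec61g and BC002163, with root mean square differences of 0.07, 0.09 and 0.11 log2 after each probe was centred on its own mean. Gng13 was added to this search after its values were seen. Tomm7 encodes a subunit of the mitochondrial import channel and Sec61g a subunit of the channel into the endoplasmic reticulum. Tomm7 was at 2.20 and 2.46 on cortical vehicle array 3 and AMI array 3 and between 3.02 and 3.80 elsewhere.

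**Figure D5:**
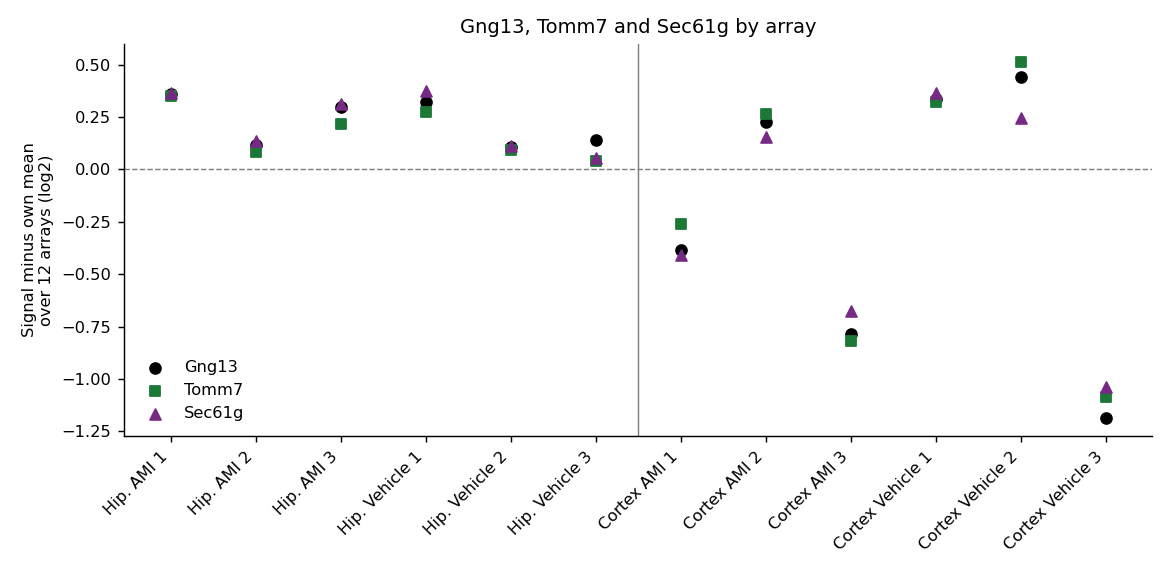
Signal of Gng13, Tomm7 and Sec61g on each of the 12 arrays (log2), each gene centred on its own mean. The 3 genes were lowest together on cortical AMI array 3 and cortical vehicle array 3, where the values of Gng13 were 3.08 and 2.68.

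By the same measure, the Gng2 probe at base 629 was nearest to Cnpy2, 0610006I08Rik and 1700029P11Rik, with differences of 0.14, 0.15 and 0.15 log2. The probe at base 3533 was nearest to other genes, 4833439L19Rik, LOC100044566 and Xpnpep1, at 0.10, 0.11 and 0.11. Gng7 was nearest to Strn4, Dgkz and 4121402D02Rik at 0.14 for each, against its own SD of 0.24 over the 12 arrays. Dgkz encodes a diacylglycerol kinase.

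The partners of the gamma subunits were compared between the tissues too, against the 43.1% of all probes that passed there. The shares below of the beta and alpha subunits and of the effectors are near that background and say nothing particular about these lists. Among the beta subunits, 2 of 4 tested genes passed, both lower in hippocampus, Gnb4 by 1.72-fold (-0.78 log2, adjusted p = 5.02e-06, limma) and Gnb5, which pairs with RGS proteins in neurons, by 1.30-fold (-0.38). Gnb1 and Gnb2 differed by -0.11 and -0.14 and did not pass, and Gnb3 was not tested. The value of Gnb1 was a mean of opposite differences, -0.53 on AMI arrays alone (adjusted p = 0.0359, limma) and 0.31 on vehicle arrays alone (adjusted p = 0.345). Under median centring Gnb5, Gnb1 and Gnb2 turned to 0.09, 0.30 and 0.36. Among the alpha subunits, 5 of 11 tested genes passed. Gna14, Gnaq and Gna11 of the family that activates phospholipase C were higher in hippocampus by 0.70, 0.56 and 0.35 log2, and Gnao1, an abundant alpha subunit of brain, was lower (-0.71). The call of Gnao1 was lost under median centring (-0.16). The median was 0.05 for the alpha and -0.26 for the beta subunits. Of the other gamma subunits, Gngt2, known from cones, was higher in hippocampus by 0.32 log2 (adjusted p = 0.0161, limma), Gng8 differed by 0.04 and Gngt1 was not tested. The Gngt2 probe was dim, with signals of 67.8 to 155.7, and was detected on 3 cortical arrays. A second Gngt2 probe was detected on 0 arrays. The call of Gngt2 was lost on vehicle arrays alone (adjusted p = 0.0504, limma) and on AMI arrays alone (adjusted p = 0.160, limma).

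The enzymes that attach farnesyl or geranylgeranyl lipids to proteins, or process the lipidated end, were tested for 5 of 6 genes, and 4 passed. Not all of them need act on gamma subunits. Fntb and Fnta, which form farnesyltransferase, and Rce1, the protease that trims the lipidated end, were lower in hippocampus, at -0.55, -0.39 and -0.22 log2. Zmpste24, another such protease, was higher by 0.18. The calls of Rce1 and Zmpste24 were each lost when single arrays were left out. For Rce1 these were hippocampal AMI array 1 and vehicle array 1 and cortical AMI arrays 2 and 3 and vehicle array 2 (-0.22 to -0.17), and for Zmpste24 hippocampal AMI array 3 and vehicle arrays 2 and 3 and cortical AMI array 1 and vehicle array 2 (0.15 to 0.18). The call of Zmpste24 was also lost under quantile normalization and neqc (adjusted p = 0.0589 and 0.0974, limma), and that of Rce1 under array weights (adjusted p = 0.0800). Under median centring Fnta turned to 0.11 and the calls of Fntb and Rce1 were lost (-0.041 and -0.0024), and Pggt1b, the beta subunit of the enzyme that adds the geranylgeranyl lipid, was detected on 0 arrays. Pdcl, a chaperone of the beta-gamma dimer, was lower (-0.53), 1 of 2 chaperones tested that passed.

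Among effectors of the dimer and regulators of the signal, calls went both ways. Of 16 effectors tested, 4 passed as higher in hippocampus, led by Adcy9 at 1.32 log2 and the calcium channel subunit Cacna1a at 0.72, with Adcy1 at 0.34, and 3 passed as lower, led by the receptor kinase Adrbk1 at -0.85. Of 13 RGS genes, which speed the end of the signal, 2 passed as higher, among them Rgs10 at 0.74, and 7 as lower, led by Rgs9 at -2.22, Rgs4 at -0.98 and Rgs6 at -0.72. The call of Adcy1 was lost without hippocampal vehicle array 1 (0.29), cortical AMI array 1 (0.32) or cortical AMI array 3 (0.33), and those of Adrbk1 and Rgs4 under median centring (-0.18 and -0.41). The medians were 0.06 for effectors and -0.39 for RGS genes, beside 0.03 for all probes. Under median centring 5 effectors were called higher and 0 lower, with a median of 0.13, and 3 RGS genes higher and 2 lower, with a median of -0.02, beside 0.19 for all probes.

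After AMI, 0 genes of these lists passed in either tissue (limma, adjusted p of 0.05). In hippocampus 0 had an unadjusted p under 0.05, and Gnb1, Gnb2, Gnb4, Gnb5, Fnta and Fntb lay between -0.11 and 0.08 log2. In cortex 5 had one, which were 1 of 4 beta subunits, 1 of 5 lipid enzymes and 3 of 13 RGS genes tested. It was 0 of 9 alpha subunits, 16 effectors, 2 chaperones and 2 other gamma subunits. Over all probes the share was 6.28% in cortex and 2.35% in hippocampus. Counts this small say nothing particular about the lists. The genes with the smallest p in these lists were Gnb1, Icmt, Rgs9 and Rgs8. Gnb1, a main beta subunit of brain, lay at 3.80, 3.38 and 3.19 after AMI and at 3.12, 2.20 and 2.57 with vehicle, without overlap. Treatment groups in cortex did not overlap for 12.2% of all probes. The Gnb1 difference was 0.78 ± 0.22 log2 (SE; unadjusted p = 0.00721, adjusted p = 0.756, limma). Icmt, which methylates the lipidated end of gamma subunits, differed by -0.44, Rgs9, a striatal RGS protein, by -0.59 and Rgs8 by -0.31. Gnb2, Gnb4, Gnb5, Fnta and Fntb differed by -0.21, 0.17, -0.04, 0.04 and -0.01 in cortex. The median AMI difference in cortex was 0.07 log2 for the beta subunits, -0.01 for the lipid enzymes and -0.06 for the RGS genes.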

How the data were processed

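The authors deposited 1 table per tissue with the mean bead intensity of each probe, linear and not normalized, and a detection p-value from the same software. Per the labels and the file headers, BeadStudio 3.4 and GenomeStudio 1.1.1 exported the hippocampal and the cortical table. Log2 intensities were z-normalized within each array over all probes, as the study's methods state, and rescaled by the average SD of the arrays compared. Background was not subtracted, so differences of dim probes are understated. Tested probes had a detection p up to 0.05 on 3 or more of a tissue's 6 arrays, in both tissues for the interaction and in at least 1 for the comparison of tissues. Arrays were grouped by their titles. Differences, standard errors and adjusted p-values come from limma 3.58.1 in R 4.3.3 (lmFit, eBayes, Benjamini-Hochberg over all tested probes), tested on simulated data. Python 3.11.15 read the tables and drew the figures.

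In hippocampus, AMI and vehicle arrays with the same number in their titles were taken as pairs. Across probes, their deviations from the group means correlated at r = 0.61, 0.30 and 0.29 for numbers 1, 2 and 3. Arrays of unlike numbers gave r of -0.47 to 0.28, so only number 1 stood well apart. The AMI and vehicle arrays of number 1 had ratios of detected to undetected median signal of 3.10 and 3.21. The other hippocampal arrays had 4.43 to 5.21. The part of signal strength in this correlation was not tested. The members and gene lists were chosen with earlier results of these data known. Text names all members; up to 4 genes per list past the threshold with the largest difference, or up to 2 with the smallest unadjusted p; Gnal, Adcy5, Gnb1 to Gnb5, Pggt1b, Fnta and Fntb; markers; and the 3 nearest profiles of Gng2 and Gng7 (those of Gng4, and the sequence of a Gng2 probe, are not reported here). For genes outside the members the probe with the highest mean signal was used. Alternatives were quantile normalization, median centring, neqc (offset 16), other detection filters, trend with robust variances, array weights, the methods' t-test, the replicate number as a block, fits of both tissues or of 1 treatment, a random block for the mouse (statmod 1.5.0) and leaving out each array.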

Additional observations from a re-analysis of the deposited data

Results flagged for a closer look

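Gng7 differed between the tissues in opposite directions in the 2 treatments. The hippocampus minus cortex value was 0.35 log2 on AMI arrays and -0.32 on vehicle arrays, and in each treatment every array of 1 tissue lay above every array of the other. The share of all probes that did the same within a treatment was not counted. With both treatments together, 22.3% of all probes had tissues that did not overlap. The difference between the 2 Gng7 values was not tested, because it is the contrast by which the members were chosen.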

How the results depend on the processing

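The direction of the hippocampal Gng2 difference (base 629) and of the cortical Gng7 difference after AMI was the same under all 16 alternatives, at -0.55 to -0.37 and -0.53 to -0.37 log2. Both genes were chosen by their AMI differences on these arrays. A steady direction was therefore likely beforehand and lends those differences no support. Between the tissues, Gng4 and Gng2 (base 629) passed under all 24 alternatives, the Gng2 probe at base 3533 under 23 and Gng3 under 22. The count of member probes called was 4 in every fit that left out an array. The count of all probes called between the tissues was 5891, 2737 on vehicle arrays only, 3573 on AMI arrays only and 5068 to 5897 when each array was left out. Counts of AMI calls were 0 to 1 in hippocampus and 0 to 1 in cortex when each array was left out (1 without hippocampal AMI array 2 and 1 without cortical AMI array 3), and 2 in cortex under neqc, under trend and robust variances and under array weights. The count for the interaction was 0 throughout. Some differences turned sign. Those of Gnb5 and Fnta between the tissues had passed, and the others listed here had not. Under median centring these were, in hippocampus after AMI, Gnb1 (0.11), Gnb2 (0.038) and Fnta (0.0067), in cortex Gnb5 (0.069) and Fntb (0.12), and between the tissues Gnb5 (0.094), Fnta (0.11), Gnb1 (0.30) and Gnb2 (0.36). Under quantile normalization and neqc, Gnb1 in hippocampus turned to 0.0033 and 0.0041, Gnb5 in cortex to 0.00094 and 0.00082, and Fntb in cortex to 0.049 and 0.052. Under array weights, Gnb1 (0.020), Gnb4 (-0.0055) and Gnb5 (-0.068) turned in hippocampus, Fntb in cortex (0.27) and Gng7 between the tissues (-0.10). On vehicle arrays only, the tissue differences of Gng7 and Gnb1 were -0.32 and 0.31. When each array was left out, Gnb1 (-0.14 to 0.078), Gnb4 (-0.057 to 0.10) and Gnb5 (-0.050 to 0.10) turned in hippocampus, Gnb5 (-0.11 to 0.017), Fnta (-0.016 to 0.13) and Fntb (-0.15 to 0.14) in cortex, and Gng7 (-0.043 to 0.059) and Gnb1 (-0.21 to 0.016) between the tissues. AMI differences of the members, which carry no test, turned sign too. In hippocampus Gng10 did so under 7 of 16 alternatives, Gng3 under 3 and Gng4 under 1. In cortex Gng13 and the Gng2 probe at base 3533 did so under 3 each and Gng10 under 2. In the interaction Gng10 did so under 5 of 20, Gng4 under 2 and Gng13 under 1. The causes were not tested.

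With the replicate number as a block, calls in hippocampus, in cortex and in the interaction stayed at 0, 5420 probes and 4 member probes passed between the tissues, and only the tissue call of Zmpste24 was lost (0.18, adjusted p = 0.0538, limma). In cortex the numbers were not taken as pairs (r = -0.06, 0.33 and 0.33, against -0.42 to 0.27 for unlike numbers). The unadjusted count in cortex under the block was 1125. A random block for the mouse gave 5827 calls with a consensus correlation of -0.02. The column headers named no BeadChip, so that block was not run. With 3 arrays per group, and detected signals 2.94 to 5.21 times the undetected ones, small changes of dim genes could not be seen.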
